A study of Mus musculus with 18 samples.

Results

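Of the 18 pancreas libraries in the series, 12 came from mice on the KPC background, 7 labelled KPC and 5 labelled KPC ASC KO, and these 12 were ordered by how much of each library was acinar enzyme RNA. The acinar share is the summed raw count of Cela1, Cela2a, Cela3b, Cpa1, Cpb1, Ctrb1, Pnlip, Prss2, Try4 and Amy2a5, all made by acinar cells, as a percentage of all counts in the library. The libraries were chosen by genotype and ranked by this measured share, so the shares are given as a description, and those 10 genes entered no test. Each library was bulk RNA from the snap-frozen pancreas of 1 mouse aged 20 weeks with a background of 129Sv mixed with C57BL/6. KPC is a mouse model of pancreatic cancer, but the labels do not spell out its alleles or the driver that targets them to the pancreas. KPC ASC KO mice are labelled as knockouts of ASC, the inflammasome adaptor encoded by Pycard, and the labels do not say whether in every cell or in 1 cell type. The sources used here do not give sex, litter, histology or extraction batch. The 6 WT mice served as the reference level and entered no fit.

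Acinar cells make up most of the exocrine pancreas and devote most of their RNA to secreted digestive enzymes. Their expression is maintained by the PTF1 complex (Ptf1a with Rbpjl), Nr5a2 and Bhlha15 (Mist1). In injury and early in tumour formation, acinar cells lose enzyme expression and take on duct-like features, a change called acinar-to-ductal metaplasia, and they secrete Reg proteins, a family of small C-type lectins. As tumours form, matrix-producing fibroblasts and immune cells fill the tissue. In bulk RNA, fewer acinar cells and less enzyme RNA in each acinar cell cannot be told apart.

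The share fell over a 9.05-fold range among KPC mice and a 1.69-fold range among KPC ASC KO mice. KPC mouse 48 had the highest share in its group, 22.2% of counts. Mice 210 and 40 followed at 14.7% and 13.1%, and mice 145, 154, 89 and 43 lay at 5.08%, 4.20%, 3.96% and 2.45%. In KPC ASC KO, mice 318, 335 and 388 had 30.2%, 29.6% and 28.8%, and mice 377 and 384 had 21.3% and 17.8%. The WT mice had between 25.3% and 31.3%. Within that WT range lay 3 of the 5 KPC ASC KO mice and 0 of the 7 KPC mice. All 10 genes were detected in every library, and the defining markers Cela1, Cpa1, Pnlip and Prss2 each took less of the library in the lowest-share KPC mouse than in any other of the 12. Cela1, a pancreatic elastase, went from 1.44% of counts in KPC mouse 48 to 0.151% in mouse 43, and Prss2, an anionic trypsin, from 2.77% to 0.307%. The 95% exact (Clopper-Pearson) interval for mouse 43 was 2.42 to 2.47% and that for mouse 48 was 22.0 to 22.3%, which covers counting error only.

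**Figure D1:**
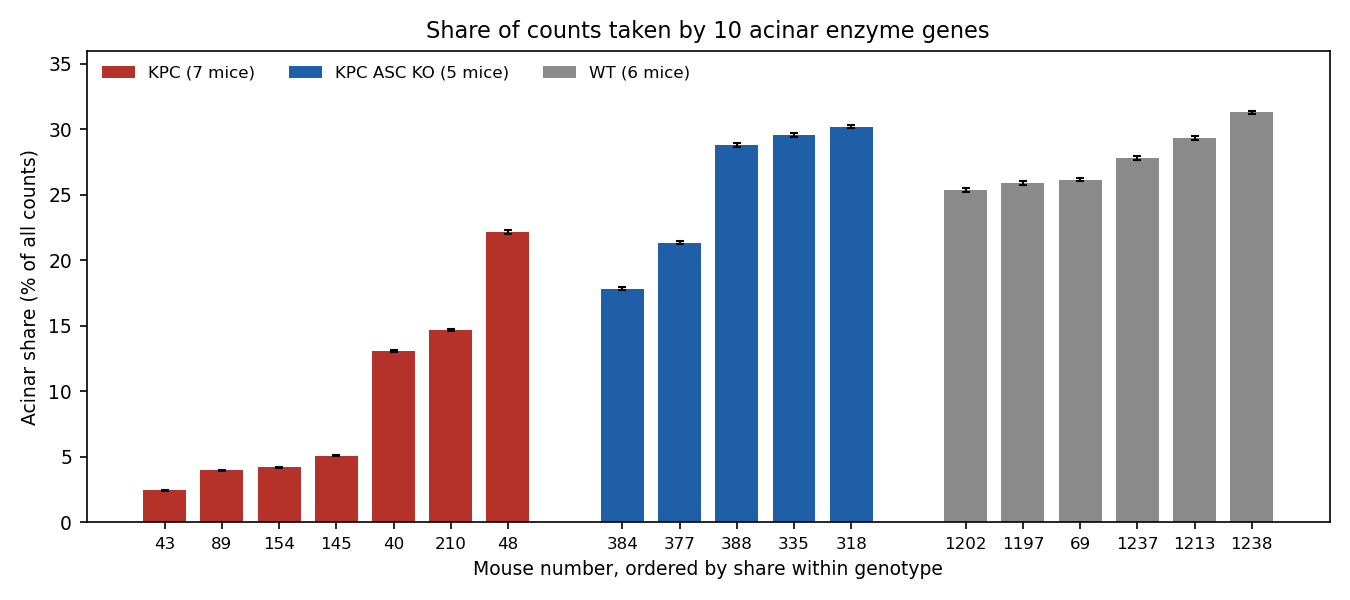
Acinar share (percentage of all counts from the 10 enzyme genes) in each mouse, ordered within KPC, KPC ASC KO and WT; bars are single libraries and error bars are 95% exact binomial intervals. The 7 KPC mice run from 2.45% to 22.2%, and KPC ASC KO mice 384 and 377 sit below the WT mice while mice 388, 335 and 318 sit among them.

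Total counts ran from 374432 to 1626977 over the 12 libraries, and in KPC depth was mostly higher where the share was lower, from 452472 in mouse 48 to 1626977 in mouse 43. The targeted gene Pycard, on chromosome 7, was present at 46.9 to 133 CPM in KPC and 62.1 to 89.9 CPM in WT mice. It had 12, 7, 5, 6 and 3 counts in KPC ASC KO mice 318, 335, 388, 377 and 384, equal to 46.4, 37.2, 28.5, 15.0 and 7.48 CPM, all below the lowest KPC mouse, although mouse 318 lay only just below it. Which part of Pycard was deleted is not stated, so these counts are not a full check of the label. Its slope on the share in KPC ASC KO was 3.10 ± 0.99 (SE, n = 5) and did not pass the test (adjusted p = 0.136, edgeR quasi-likelihood test). CPM is the usual depth-scaled count, taken here over the counts outside the 10 genes and scaled by edgeR's TMM factors. The near tie in Pycard between mouse 318 and KPC mouse 43 depends on these factors, 0.571 and 1.52. Mouse 318 had 12 Pycard counts among 452296 outside the 10 genes, and KPC mouse 43 had 113 among 1587145. KPC mouse 43, the lowest in share, stood apart from the other low-share KPC mice in lymphoid, duct and islet transcripts. Where the number of genes called among the KPC mice in a counted list changed by more than 1.5 times without it, both numbers are given. Over all 6702 genes tested without mouse 43, 673 were called as rising with the share in KPC and 374 as running against it.

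Upstream sequences of a few genes are shown because the share is built on enzyme genes and because genes that follow it can be looked at for the same letters. PTF1 is known to bind a bipartite site, an E-box beside a TC-box. Windows of 250 bases before the annotated start (RefSeq, GRCm38.p6) were searched on both strands for the E-boxes CACCTG or CAGCTG and for the TC-box TTTCCCA. The spacing between E-box and TC-box was not limited, so a window with both need not hold the bipartite site. Matches can share letters, as they do in the Xbp1 window but not in the windows printed here. Both kinds were present in 1.88% of all 32851 promoters and in 1.78% of the 6909 promoters of tested genes. They were present in 3 of the 10 share genes and in 5.13% of the 195 promoters of genes called as rising with the share. Those 195 promoters belonged to 149 of the 207 called genes. An E-box, with or without a TC-box, was present in 27.7% of all promoters, 24.9% of those of tested genes and 39.5% of the called set. For an E-box without a TC-box these were 25.9%, 23.1% and 34.4%. These are letter matches, and they were not tested as binding sites. Cela2a and Prss2 are share genes, Cel encodes the bile salt-stimulated lipase and Slc38a5 a glutamine transporter, and both of the latter rose with the share. The printed windows were picked from those that hold both an E-box and a TC-box, so they do not stand for their sets. Each sequence runs 5′ to 3′ on the gene's strand, with matches on either strand in capitals. The windows are chr4:141826006-141826255 (minus strand), chr6:41521526-41521775 (plus), chr2:28563404-28563653 (minus) and chrX:8271131-8271380 (plus). The coordinates given with the counts differ from RefSeq for Cela2a and Slc38a5. There Cela2a, on the minus strand, ends at 141826160 and Slc38a5 starts at 8271133, so both windows overlap the gene spans that were counted.
Cela2a: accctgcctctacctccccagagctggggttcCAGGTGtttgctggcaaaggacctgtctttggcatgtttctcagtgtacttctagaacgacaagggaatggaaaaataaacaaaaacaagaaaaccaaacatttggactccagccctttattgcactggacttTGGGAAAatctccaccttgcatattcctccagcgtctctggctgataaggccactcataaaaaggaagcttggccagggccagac
Prss2: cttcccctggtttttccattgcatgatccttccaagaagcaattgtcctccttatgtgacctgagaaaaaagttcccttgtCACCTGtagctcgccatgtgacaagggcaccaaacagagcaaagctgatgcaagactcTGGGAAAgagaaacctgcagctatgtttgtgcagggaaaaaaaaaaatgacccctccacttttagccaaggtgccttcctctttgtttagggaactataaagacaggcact
Cel: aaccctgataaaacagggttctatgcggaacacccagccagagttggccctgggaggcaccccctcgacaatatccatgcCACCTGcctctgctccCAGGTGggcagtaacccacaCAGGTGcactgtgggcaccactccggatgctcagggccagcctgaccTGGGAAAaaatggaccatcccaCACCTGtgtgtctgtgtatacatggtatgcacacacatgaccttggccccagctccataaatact
Slc38a5: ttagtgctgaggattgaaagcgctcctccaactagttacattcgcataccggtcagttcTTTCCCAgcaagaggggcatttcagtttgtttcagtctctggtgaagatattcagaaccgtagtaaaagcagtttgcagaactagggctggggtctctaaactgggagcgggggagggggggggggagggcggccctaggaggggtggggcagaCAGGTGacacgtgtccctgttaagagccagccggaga

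Genes that moved with the share were sought with a slope, the log2 change in CPM for each log2 unit of share, fitted within genotypes. Of 7232 genes tested, 207 rose with the share in the fit of 1 slope for both genotypes (2.86% of genes) and 3 ran against it (0.0415%), 2.9% in either direction, at an adjusted p under 0.05 (edgeR quasi-likelihood test, Benjamini-Hochberg). Among the 207 were 34 genes of the acinar lists, 12 of the endoplasmic reticulum (ER) and translocon lists and 10 of the amino acid list, while 139 were in none of the lists described here. A second fit of all 12 libraries gave each genotype its own slope, with 1 estimate of the spread shared by both. In it, 201 genes rose with the share among the 7 KPC mice (2.78%) and 3 ran against it (0.0415%), 2.82% in all. Among the 5 KPC ASC KO mice 67 rose (0.926%) and 51 ran against it (0.705%), 1.63% in all. The slopes of the genotypes differed for 33 genes (0.456%), 6 more positive in KPC ASC KO (0.083%) and 27 more negative (0.373%). The KPC ASC KO mice span 0.76 log2 units of share in a group of 3 and a group of 2, so a slope there rests on mice 377 and 384 against 318, 335 and 388, and its value per log2 unit reaches beyond the range seen. Leaving out any 1 of these 5 mice left 35 to 54 genes called in KPC ASC KO and 2 to 16 for the difference.

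These counts depend on scaling, depth and single mice. When counts were scaled by totals outside the 10 genes, without TMM, the median common slope of all genes shifted from -0.02 to -0.28 and the split became 106 rising and 171 against, with 113 and 198 for KPC, 32 and 813 for KPC ASC KO, and 5 and 308 for the difference. With totals of all counts the splits were 113 and 2522, 127 and 2389, 26 and 1704, and 5 and 584, so genes with slopes near 0 are reported here only relative to the median gene. With the library total in the fit, 61 genes were called in common and 44 in KPC. Without KPC mouse 48 the counts were 94 and 89.

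The genotypes were also fitted apart, on separate mice. Of 101 genes that rose with the share in KPC alone and could be tested in KPC ASC KO, 93 had a positive slope there and 71 were called there. Outside the acinar lists the counts were 72, 64 and 43. Of all 2535 genes tested in both, 123 were called as rising in KPC ASC KO alone. Of 164 genes that ran against the share in KPC ASC KO alone, 104 had a negative slope in KPC, 63.4% where 66.3% of all 2535 genes tested in both had the same sign, and 0 were called. Their median slope was -1.88 in KPC ASC KO and -0.06 in KPC.

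Digestive enzymes outside the 10 rose with the share in both genotypes. They come from the same cells as the 10 genes, so this describes the share more than it tests it. Of 22 tested enzymes and zymogen granule proteins, 20 rose with the share in the common fit, 20 among the KPC mice and 17 among the KPC ASC KO mice, with 0 against it. Their median slope was 1.36 in KPC and 2.24 in KPC ASC KO, against -0.02 and 0.01 over all genes. With 1 KPC ASC KO mouse left out, 8 (without mouse 384), 11 (without 318 or 377), 12 (without 335) or 14 (without 388) were called there. Pnliprp2, a pancreatic lipase-related protein, had 120 CPM in the lowest KPC mouse, a median of 354 and 3753 in mouse 48, with a KPC slope of 1.58 ± 0.07 (SE, n = 7, adjusted p = 1.24e-09, edgeR). The 5 KPC ASC KO values were 8405, 6350, 6347, 3434 and 2622 CPM in mice 318, 335, 388, 377 and 384, with a slope of 2.02 ± 0.30 (n = 5, adjusted p = 0.00226). Sycn, a zymogen granule membrane protein, went from 861 CPM in KPC mouse 43 through a median of 2208 to 19127 in mouse 48.

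The genes that specify and regulate the acinar cell moved with the enzymes. Of 19 tested, 14 rose with the share in the common fit, 13 among the KPC mice and 9 among the KPC ASC KO mice, with 0 against it. Leaving out 1 KPC ASC KO mouse left 3 (without mouse 384) to 6 (without 388) called there. Cckar, the cholecystokinin receptor through which meals trigger enzyme secretion (chr5:53697776-53707705), had 14.9 CPM in KPC mouse 43, a median of 30.8 and 314 in mouse 48. KPC ASC KO mice had 549, 484, 411, 250 and 164 CPM in the same order of mice, and WT mice had 374 to 608. Its slope was 1.46 ± 0.09 over both genotypes (adjusted p = 4.13e-08, edgeR). In the plot of single genes the Cckar points of both genotypes run along the same rise.

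The transcription factors were less alike. Rbpjl, the PTF1 subunit restricted to acinar cells, had 40.3, 59.2 and 476 CPM as the lowest, median and highest KPC values, and 1049, 1186, 1015, 547 and 426 CPM in KPC ASC KO (common slope 1.25 ± 0.09, adjusted p = 1.3e-07). Bhlha15, which drives the secretory machinery, ran from 11.2 to 159 CPM in KPC and was at 418, 356, 251, 180 and 110 CPM in KPC ASC KO, where the WT range was 352 to 620. Ptf1a rose with the share in KPC (slope 1.18 ± 0.17, adjusted p = 0.000476), from 6.39 CPM in mouse 89 to 130 in mouse 48. The KPC ASC KO mice had 92.9, 128, 131, 102 and 84.7 CPM, with a slope of 0.54 ± 0.76 (adjusted p = 0.806), and the difference between the genotypes did not pass the test (-0.64 ± 0.77, adjusted p = 0.824). Nr5a2, a nuclear receptor of acinar identity, was not called (0.64 ± 0.18, adjusted p = 0.0761).

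Part of the machinery that supplies amino acids and folds secreted protein rose with the share in KPC, and KPC mouse 48 was highest for most of the genes named here. Of 19 tested genes for amino acid supply, 10 rose with the share in KPC and 1 in KPC ASC KO. Of 21 ER chaperone and unfolded protein response genes 7 and 0 rose, and of 22 translocon and signal peptide genes 4 and 1. None of these genes was called against the share. Without mouse 48, 3 of 18 amino acid genes, 1 of 21 ER genes and 0 of 22 translocon genes were called in KPC. Without mouse 43, 12 of 21 ER and 7 of 22 translocon genes rose in KPC, and 6 ER, 3 translocon and 6 amino acid genes rose in KPC ASC KO. With the library total, mostly higher at lower shares in KPC, added to the fit, 0 amino acid and 0 ER genes were called in KPC, where 18 of 22 enzymes still were, and the part of depth in these results was not tested further. The median slope of the ER list in KPC ASC KO was 0.58 with TMM and -0.46 when counts were scaled by totals outside the 10 genes, so its direction there depends on the scaling, as does that of the translocon list.

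Slc38a5, the glutamine transporter, rose from 1.25 CPM in KPC mouse 43 through a median of 10.4 to 87.4 in mouse 48. KPC ASC KO mice were at 213, 303, 234, 92.4 and 67.3 CPM, and the 3 high-share mice lay within the WT range of 174 to 344. Its slope was 1.71 ± 0.16 in KPC (adjusted p = 2.05e-06) and 2.69 ± 0.58 in KPC ASC KO (adjusted p = 0.0286). Chac1, a glutathione-degrading enzyme induced by ATF4, stood apart in KPC mouse 48 with 282 CPM where the other KPC mice had at most 78.7. Cbs, of the transsulfuration pathway, was at 6.39, 10.4 and 142 CPM as the lowest, median and highest KPC values. The 5 KPC ASC KO mice had 267, 245, 297, 92.4 and 132 CPM, with a slope that missed the threshold (1.74 ± 0.59, adjusted p = 0.161). Sel1l, part of the ER-associated degradation complex, ran from 97.1 to 855 CPM in KPC, and Herpud1, of the same pathway, from 99.4 to 651, with mouse 48 highest for both. Xbp1, the splice-activated regulator of ER capacity, changed less, from 264 to 615 CPM in KPC (common slope 0.32 ± 0.08, adjusted p = 0.0374).

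Other named genes rose with the share in the common fit. Hsd17b13, a lipid droplet protein, had a common slope of 1.73 ± 0.14, the kallikreins Klk1b27 and Klk1b5 had 1.68 ± 0.19 and 1.54 ± 0.15, and Aqp12, an aquaporin of acinar cells, had 1.51 ± 0.15. Aldh1l2, a mitochondrial folate enzyme, had 1.61 ± 0.16 and Pdia2, a pancreatic protein disulfide isomerase, 1.59 ± 0.10. Each passed at an adjusted p of at most 1.48e-05 (edgeR). Gal, which encodes the neuropeptide galanin, differed in slope between the genotypes by 2.91 ± 0.58 (KPC ASC KO minus KPC, adjusted p = 0.0418), a call lost without any 1 of the KPC ASC KO mice or without KPC mouse 89 or 210 (adjusted p from 0.0561 to 0.192). It had 19.1 to 230 CPM in KPC and 975, 1489, 707, 192 and 172 CPM in KPC ASC KO, and WT mice had 1233 to 2597. Casp9, an initiator caspase, rose by 1.57 ± 0.14, and its count is uncertain. Its annotated span (chr4:141793612-141815976, plus strand) overlaps Cela2a and Ctrc on the other strand by 1015 bases, and the sources used here do not say whether counting used strand. Amy2b and the other amylase genes are near-identical copies whose reads the counting could have divided.

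The summed level of the mitochondrially encoded genes, read here as a sign of library make-up, was 5375 to 10206 CPM in KPC, 16161 to 16883 CPM in KPC ASC KO mice 388, 335 and 318, and 9264 to 9456 in mice 384 and 377. The gap between these groups depends on the TMM factors, since a lower factor gives a higher CPM. The factors were 0.571, 0.629 and 0.658 in mice 318, 335 and 388, 0.924 and 1.01 in mice 377 and 384, and 0.877 to 1.52 in KPC. Of 15 tested, 2 were called as rising in KPC and 1 in KPC ASC KO. Without KPC mouse 43 these numbers were 4 and 5. The nuclear RNA Neat1 rose with the share as well (0.47 ± 0.12, adjusted p = 0.0453). The part of these transcripts in the acinar results was not tested.

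The Reg family divided into genes that followed the share and genes that were highest at intermediate shares. The list counted here holds the Reg family together with acinar injury response genes. In KPC 6 of its 8 tested members rose with the share. Among the KPC ASC KO mice 0 rose and 3 ran against it, and the slopes differed between genotypes for 3, all more negative in KPC ASC KO. Without KPC mouse 43, 5 ran against the share there and 5 differed. Reg1, the major Reg gene of acinar secretion, followed the enzymes with 1549, 2565 and 19878 CPM as the lowest, median and highest KPC values and 34804, 20668, 16252, 19308 and 13767 CPM in KPC ASC KO (common slope 1.19 ± 0.10, adjusted p = 8.14e-07). The stress protein gene Nupr1 also rose with the share in the common fit (1.19 ± 0.10, adjusted p = 3.63e-07).

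Reg2 was highest in mice of intermediate share. It had 13247 and 8047 CPM in KPC ASC KO mice 377 and 384, and 8160, 6644 and 2618 CPM in KPC mice 48, 210 and 40. In KPC ASC KO mice 318, 335 and 388 it had 991, 989 and 1026 CPM, inside the WT range of 884 to 1295. The 4 KPC mice of lowest share had 284 to 1054 CPM. The KPC slope was 1.43 ± 0.21 (adjusted p = 0.00255) and the KPC ASC KO slope was -5.57 ± 0.97 (adjusted p = 0.0212), a difference of -7.00 ± 1.00 (adjusted p = 0.0175, edgeR).

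Reg3b, Reg3g and Reg3a, induced in pancreatitis, had the same shape. Reg3b had 7687 and 6258 CPM in KPC ASC KO mice 377 and 384, and 6444 and 5299 in KPC mice 48 and 210. It had 1022, 1282 and 1066 CPM in KPC ASC KO mice 318, 335 and 388, where WT mice had 993 to 1515, and 720 to 1186 in the 4 lowest KPC mice. The slopes differed by -5.27 ± 0.65 for Reg3b (adjusted p = 0.00401) and by -5.49 ± 0.70 for Reg3g (adjusted p = 0.00401). Reg3a had 2325 and 1787 CPM in KPC ASC KO mice 377 and 384 and 143 to 218 CPM in the other 3, and its difference of -7.16 ± 1.29 just missed the threshold (adjusted p = 0.0522). Reg3d lay between the patterns, with 1169, 790 and 1153 CPM in KPC ASC KO mice 377 and 384 and KPC mouse 48, and 871, 601 and 508 CPM in the high-share KPC ASC KO mice. These genes lie together on chromosome 6, from Reg3b at 78370657 to Reg3g at 78468872 in the files' coordinates. Without KPC ASC KO mouse 318 or mouse 335, Reg3b and Reg3g both missed the threshold (adjusted p = 0.0600 and 0.0700 for each), with differences of -5.12 and -5.31 for Reg3b and -5.51 and -5.50 for Reg3g. Reg2 missed it without 318, 335 or 388 (adjusted p from 0.0997 to 0.135).

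**Figure D2:**
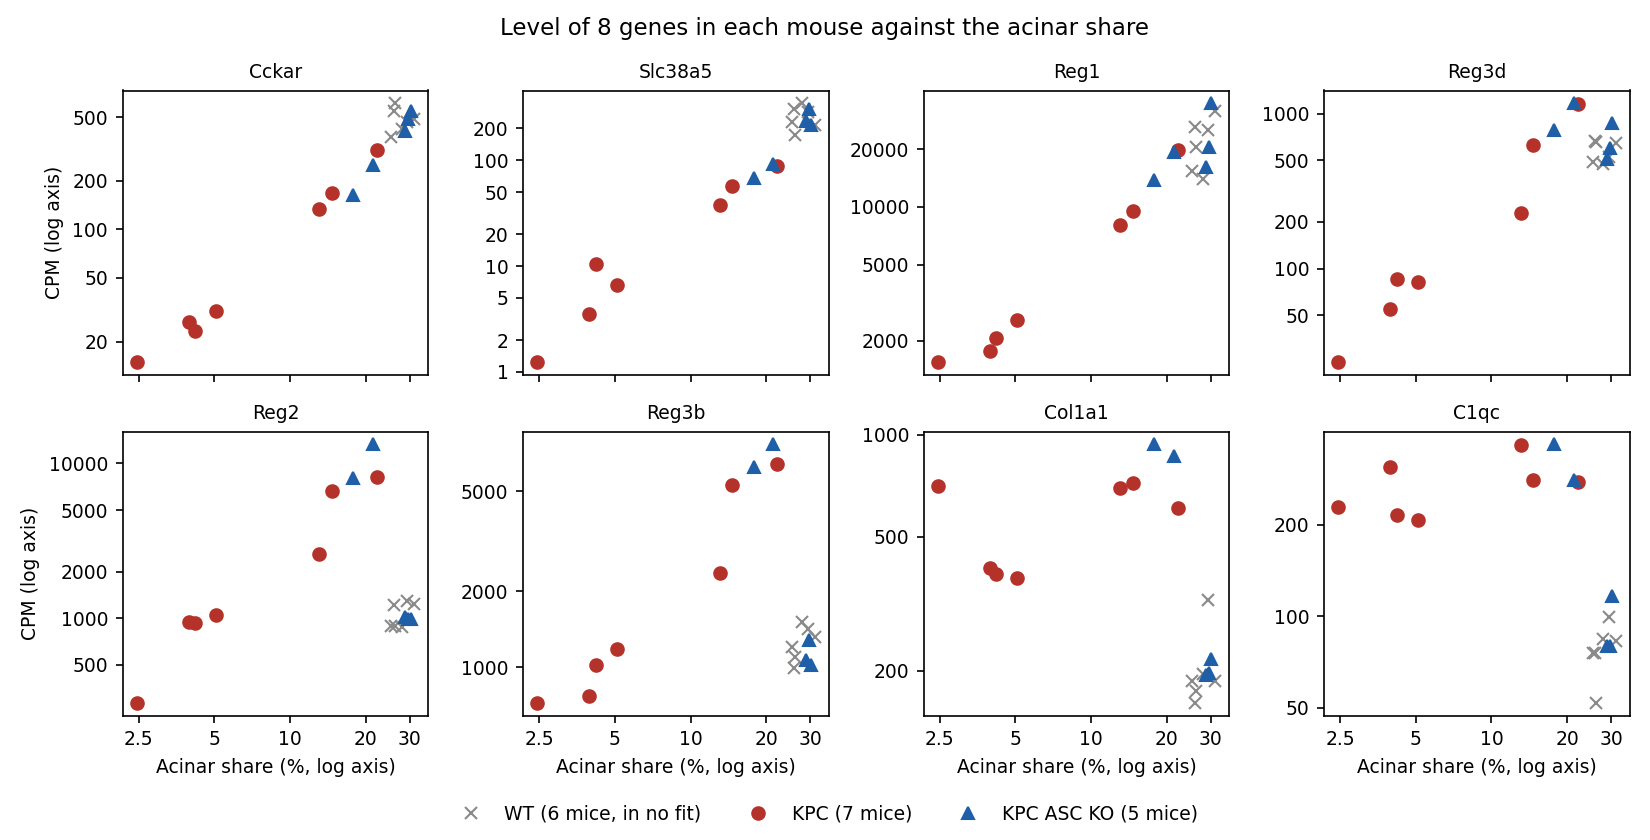
CPM of 8 genes (log axis) against the acinar share (%, log axis), 1 point for each mouse, for KPC (red circles), KPC ASC KO (blue triangles) and WT (grey crosses). Cckar and Slc38a5 are higher at higher shares in both genotypes, Reg1 rises in KPC and is level between KPC mouse 48 and KPC ASC KO mouse 377 (19878 and 19308 CPM), Reg2 and Reg3b peak in KPC ASC KO mouse 377 and fall to 991 and 1022 CPM in mouse 318, and Col1a1 and C1qc are at 376 CPM or above and 206 CPM or above in every KPC mouse.

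Summed matrix and macrophage levels lay above the WT range in every KPC mouse and separated the KPC ASC KO mice of high and lower share. With TMM scaling, none of these genes had a called slope among all 7 KPC mice. Such slopes near 0 are relative to the median gene and depend on the scaling. With totals of all counts, 2389 of the 7232 genes tested ran against the share in KPC, and with totals outside the 10 genes 198 did. The summed extracellular matrix list was 3748 to 7948 CPM in KPC, 7855 and 7801 CPM in KPC ASC KO mice 377 and 384, and 2674, 2601 and 2401 CPM in mice 318, 335 and 388, where WT mice had 2261 to 2753. Of 33 matrix genes tested, 0 were called in KPC (edgeR; 2 at an unadjusted p under 0.05, and 0 by DESeq2 or limma-voom) and 5 ran against the share in KPC ASC KO, all 33 with negative slopes there, and the slopes differed for 4. Without KPC mouse 43, 11 of 31 matrix genes rose with the share in KPC (median slope 0.33), where 673 of all 6702 genes did. The 16 macrophage genes gave 0 in KPC (1 at an unadjusted p under 0.05, and 0 by DESeq2 or limma-voom), 7 against the share in KPC ASC KO and 5 differing, and without mouse 43 1 of them rose in KPC. With 1 mouse left out, 1 (without KPC ASC KO mouse 335) to 17 (without KPC mouse 43) matrix genes and 2 to 11 (without the same mice) macrophage genes ran against the share in KPC ASC KO. Their sum was 5453 to 7194 CPM in KPC, 7293 and 6824 CPM in KPC ASC KO mice 377 and 384, and 3014, 2500 and 2372 CPM in the other 3.

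Col1a1, the main chain of type I collagen, had 376, 609 and 720 CPM as the lowest, median and highest KPC values. It had 217, 197 and 194 CPM in KPC ASC KO mice 318, 335 and 388 and 869 and 937 in mice 377 and 384. Its slopes were 0.14 ± 0.11 in KPC (adjusted p = 0.770) and -3.37 ± 0.54 in KPC ASC KO (adjusted p = 0.00448), with a difference of -3.51 ± 0.55 (adjusted p = 0.0108). Eln, which encodes elastin, differed by -4.79 ± 0.70 (adjusted p = 0.0058) and rested partly on KPC ASC KO mouse 384, at 307 CPM where the other 4 mice had 23.2 to 64.9. Without that mouse the difference was -2.84 (adjusted p = 0.547). Col3a1 and Sparc, a further fibrillar collagen and a collagen-binding protein, differed by -3.21 ± 0.58 and -2.36 ± 0.47 (adjusted p = 0.0303 and 0.0418).

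C1qc, a complement subunit made by macrophages, had 206, 275 and 366 CPM as the lowest, median and highest KPC values. In KPC ASC KO it had 116, 79.8, 79.8, 280 and 366 CPM in mice 318, 335, 388, 377 and 384, so the last 2 lay among the KPC mice and above every WT mouse (51.9 to 99.1). The difference of slopes was -2.93 ± 0.45 (adjusted p = 0.0089). Ctss, a lysosomal protease, and Tyrobp, a myeloid signalling adaptor, differed by -3.18 ± 0.50 and -2.56 ± 0.51 (adjusted p = 0.00963 and 0.0418). Csf1r, the macrophage growth factor receptor, did not pass (-2.30 ± 0.58, adjusted p = 0.111). Retnla, a marker of alternatively activated macrophages that other cells also make, had 789 and 591 CPM in KPC ASC KO mice 377 and 384 and 85.1 to 120 CPM in the other 3, a difference of -5.21 ± 0.94 (adjusted p = 0.0418). The paired receptor gene Pilra differed by -5.50 ± 1.13 (adjusted p = 0.0455), with 69.8 CPM in KPC ASC KO mouse 384 and 17.5 in mouse 377. The immediate early gene Junb differed by -2.70 ± 0.53 (adjusted p = 0.0418, lost without any 1 of the KPC ASC KO mice or without KPC mouse 40, 48 or 210, at 0.0525 to 0.208), at 162 to 170 CPM in KPC ASC KO mice 384 and 377, 45.6 to 53.2 in the other 3 and 129 to 215 in KPC. With KPC ASC KO mouse 318, 335 or 388 left out, no matrix or macrophage gene was called for the difference. With all 12 mice, limma-voom called 0 of either list for it and DESeq2 called 10 matrix and 11 macrophage genes. Without KPC mouse 43, 16 of 31 matrix and 11 of 16 macrophage genes were called.

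**Figure D3:**
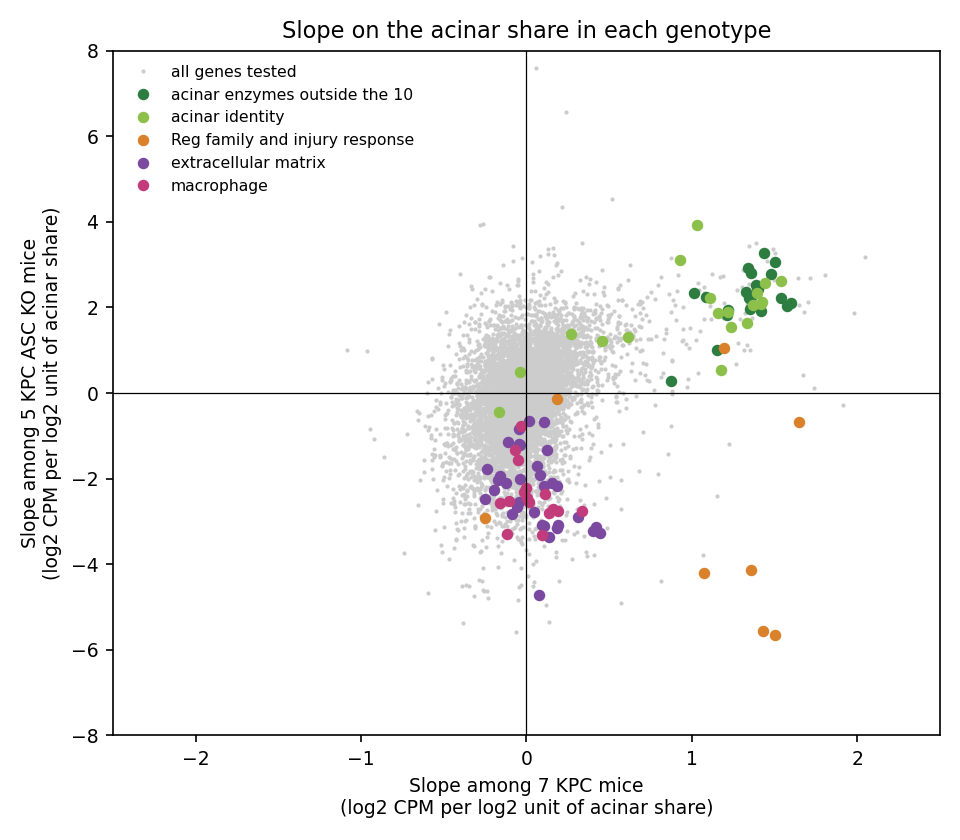
Slope on the acinar share among the 7 KPC mice (x axis) and the 5 KPC ASC KO mice (y axis), both in log2 CPM per log2 unit of share, 1 point for each of the 7232 genes tested, with 5 gene lists in colour. Most acinar genes lie at upper right, matrix and macrophage genes below the horizontal zero line near x = 0, and Reg2, Reg3a, Reg3b and Reg3g at lower right (Reg2 at 1.43 and -5.57).

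The KPC mice had more than one profile, and these did not follow the order of the share, since mouse 40 had a share of 13.1%. Mice 145, 154, 89 and 40 had 1820, 1778, 1603 and 1042 CPM summed over the B cell list, where KPC mice 48, 210 and 43 had 162, 202 and 49.8, the KPC ASC KO mice had 240 to 379 and WT mice had 214 to 302. The T and NK cell list showed the same mice high, with 862 to 1273 CPM against 118 to 222 in the other 3. Cd79a, a subunit of the B cell receptor, had 164 to 190 CPM in mice 89, 154 and 145 and 3.74 CPM in mouse 43. The defining T cell gene Cd3e had 25 to 38 counts in mice 40, 145, 154 and 89 and 0 to 4 in the other 3 KPC mice. Of 9 B cell genes 0 were called in KPC with mouse 43 included (edgeR, DESeq2 and limma-voom, and 0 at an unadjusted p under 0.05, with a median slope of -0.59 in edgeR), and 8 of 9 ran against it without mouse 43 (median -1.04). Whether these transcripts come from lymphoid tissue taken with the pancreas was not tested.

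Duct and islet genes gave the mirror image. The summed duct list had 6148 CPM in KPC mouse 43, 5061 and 4783 in mice 210 and 48, 2323 in mouse 40 and 1507 to 1774 in mice 89, 145 and 154. Krt19, the cytokeratin of duct cells, had 543 CPM in mouse 43 and 115 to 155 CPM in mice 145, 89 and 154. Of 16 duct genes 0 were called in KPC by edgeR, DESeq2 or limma-voom (0 at an unadjusted p under 0.05 in edgeR), and without mouse 43 edgeR called 13 of 15 as rising. The islet list behaved likewise, with 5007 CPM in mouse 43, 6282 in mouse 48 and 594 to 912 in mice 89, 154, 145 and 40. Ins2, an insulin gene, had 1528 CPM in mouse 43 and 209 to 408 in those 4. Islet genes called in KPC were 0 of 14 with mouse 43 (edgeR, DESeq2 and limma-voom, and 0 at an unadjusted p under 0.05 in edgeR) and 10 of 14 rising without it. Mesothelial transcripts were also high in mouse 43, at 124 CPM against 10.6 to 48.6 in the other KPC mice, with 179 counts of the defining marker Msln.

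Leaving out mouse 43 changed the counts over all genes as well, with 6702 genes tested. In KPC 673 rose with the share and 374 ran against it, and in the common fit 555 and 338. In KPC ASC KO the counts were 187 and 238. For the slope difference, 37 were more positive in KPC ASC KO and 174 more negative. The acinar lists changed little, with 20 of 22 enzymes and 18 of 19 identity genes called in KPC without mouse 43. Leaving out KPC mice 40, 89, 145 and 154 left 21 of 22 enzymes and 14 of 21 identity genes called in KPC.

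**Figure D4:**
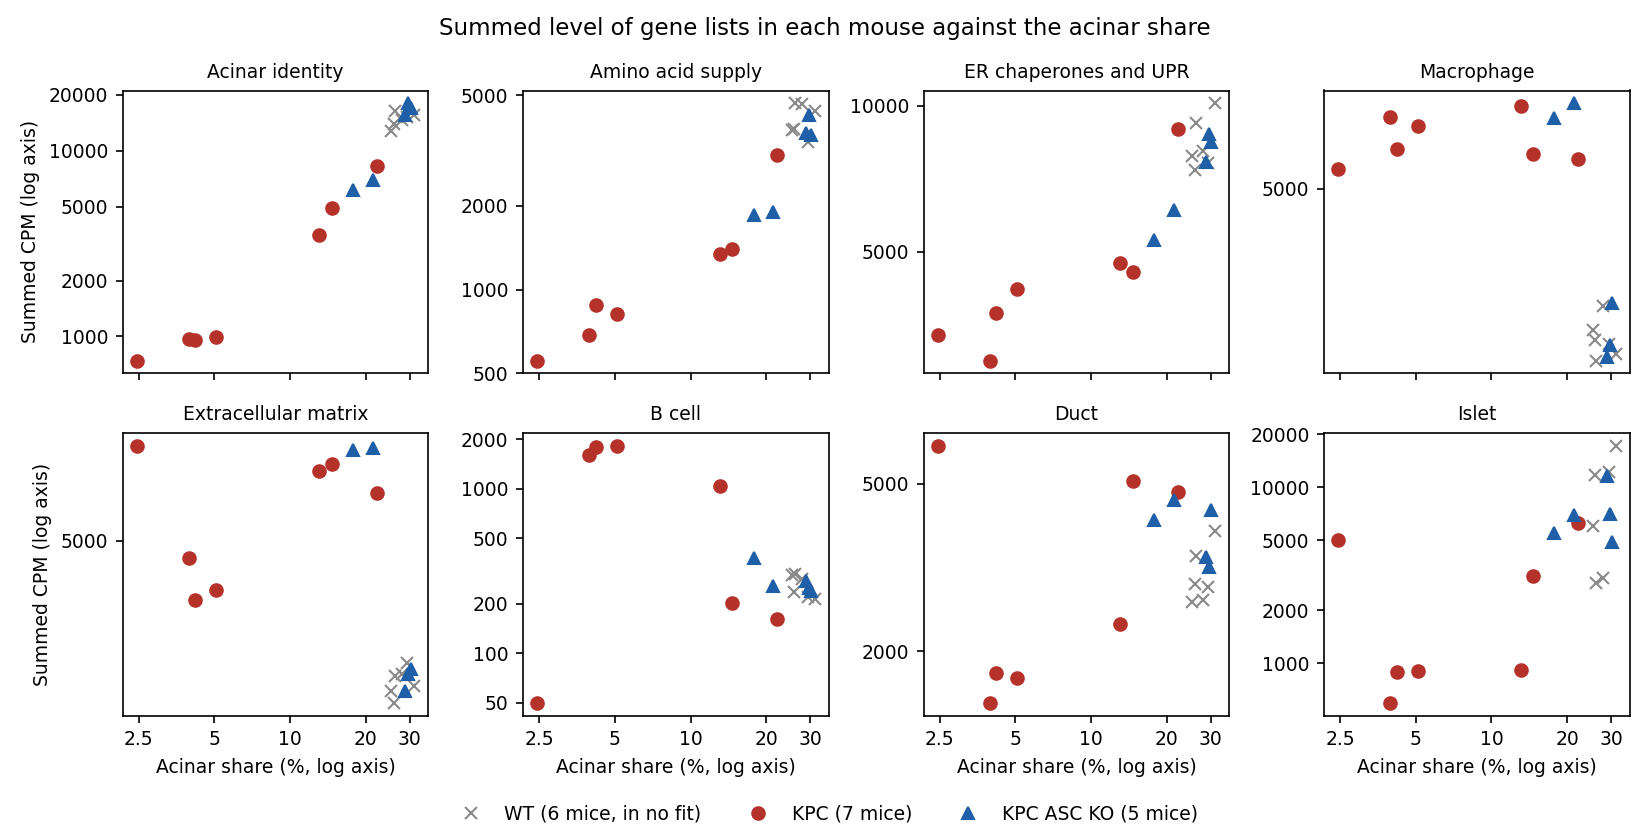
Summed CPM of 8 gene lists (log axis) against the acinar share (%, log axis), 1 point for each mouse, for KPC (red circles), KPC ASC KO (blue triangles) and WT (grey crosses). Acinar identity rises from 741 CPM in KPC mouse 43, macrophage and matrix sums step between KPC ASC KO mice with shares of 21.3% and 28.8%, and KPC mouse 43 (leftmost) is low for B cell genes and high for duct and islet genes.

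A few stomach-type secretory genes rose with the share in KPC. Of 15 tested gastric metaplasia genes, 3 rose and 0 ran against it. Without KPC mouse 48 or without mouse 210, 0 were called in KPC, without mouse 89 1 rose, and without mouse 43 8 rose and 1 ran against it. In KPC ASC KO 0 were called (edgeR; 2 at an unadjusted p under 0.05, and 0 by DESeq2 or limma-voom). Tff1, a trefoil peptide of mucous cells, had 979, 1480 and 5964 CPM as the lowest, median and highest KPC values (common slope 0.65 ± 0.13, adjusted p = 0.0129). Tff2 had 675, 1711 and 5692 CPM (0.73 ± 0.16, adjusted p = 0.0201), with 10932, 11063, 10259, 5107 and 3868 CPM in KPC ASC KO and 8122 to 13907 in WT. Gkn1, a gastric mucosal protein, had 365, 531 and 2176 CPM (0.72 ± 0.14, adjusted p = 0.00913). WT mice had 2153 to 8429 CPM of Tff1 and 552 to 3943 CPM of Gkn1. With the library total in the fit 0 of the 15 were called. The part of stomach tissue taken with the pancreas was not tested.

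The genes that ran against the share in the common fit were Bcl2l11, Sulf1 and Hhex, and all were of low level. All 3 calls were lost without KPC mouse 48 and with the library total in the fit, which both left 0 genes called against the share, where 338 were without mouse 43. Bcl2l11, which encodes the pro-apoptotic protein BIM, went from 13.0 CPM in KPC mouse 48 through a median of 30.8 to 59.0 in mouse 43 (slope -0.66 ± 0.13, adjusted p = 0.00869). Sulf1, a heparan sulfate 6-O-endosulfatase, went from 22.7 through 46.4 to 99.6 CPM (-0.58 ± 0.13, adjusted p = 0.0163), and Hhex, a homeobox gene of foregut and duct cells, from 19.4 through 52.8 to 90.5 CPM (-0.51 ± 0.12, adjusted p = 0.0251). None of them was called in KPC ASC KO, at 10.6 to 39.9 CPM over the 3 genes. Cell cycle genes gave 0 of 8 called in KPC and 1 of 8, Ccnd1, against the share in KPC ASC KO (-1.42 ± 0.29, adjusted p = 0.0215), a call lost without KPC ASC KO mouse 318, 335, 384 or 388. Without KPC mouse 43, 5 of 8 ran against the share in KPC. The tumour suppressor gene Trp53 had no called slope (common slope -0.19 ± 0.17, adjusted p = 0.729).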

How the data were processed

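The file holds the authors' raw counts of unique molecular identifiers (UMIs) per gene, 25651 genes in 18 mouse pancreas libraries, deposited without normalization. Per the labels' protocols, cDNA was primed on poly(A) with a sample index of 8 bp and a UMI of 10 bp and read in the sense direction. The submitters' processing notes name R 4.1.2, edgeR 3.36.0, limma 3.50.0 and the builds GRCm38 and mm10; the sources used here do not give the counting tool or its strand setting. Of the gene identifiers, 25575 matched GENCODE M21.

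The 10 share genes were left out of tests, library sizes and TMM factors. Genes kept by filterByExpr (minimum count of 10, 12 libraries) were fitted in edgeR 4.0.16 (R 4.3.3) with robust quasi-likelihood, genotype as intercept and log2 acinar share as 1 slope (9 residual degrees of freedom) or a slope for each genotype (8). Benjamini-Hochberg adjustment ran over all 7232 genes, at a threshold of 0.05. The fit was tested on simulated data with known slopes. DESeq2 1.42.0 and limma-voom (limma 3.58.1), other scalings, filters, forms of the share, added covariates and leaving out mice were alternatives.

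Named genes were Pycard and Trp53, up to 12 called genes in each direction of the common slope and 5 of the slope difference (mean of at least 20 CPM), and the 4 members of each list with the smallest p over the common and difference tests; a few more (Rbpjl, Bhlha15, Ptf1a, Nr5a2, Cel, Reg2, Reg3a, Nupr1, Xbp1, Csf1r, Krt19, Cd79a) are named for their role. Some genes are not reported here. Members and lists were chosen with earlier results of these data known. No pair of libraries was alike within sampling noise (chi-square over degrees of freedom at least 2.35). Each library is 1 mouse, so p-values measure the spread between mice. Promoter windows came from RefSeq (GRCm38.p6).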

Additional observations from a re-analysis of the deposited data

Results flagged for a closer look

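Within a genotype, a mouse was marked where its gap to the next mouse was large for the range of the group (Dixon's test at 95%, without log transformation). For unselected, normally spread values chance alone gives this in about 1 in 20 groups. Many of the genes here were named because they rise with the share, so that rate does not hold for them. KPC mouse 48, with the highest acinar share of the 7 KPC mice, was far above the others in summed ER chaperone genes (8982 CPM) and amino acid genes (3050 CPM). The same mouse was far above the others in Ptf1a (130 CPM), Gal (230), Chac1 (282), Gcat (382), Cbs (142), Gatm (563), Sel1l (855), P4hb (1302), Herpud1 (651), Derl3 (301), Tff1 (5964), Casp9 (1829) and mt-Nd5 (282 CPM). KPC mouse 43 was far above the others in summed p53 target genes (473 CPM) and mesothelial genes (124 CPM), and KPC mouse 210 in contractile genes (2049 CPM).

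Among the KPC ASC KO mice, mouse 384 was far above the others in summed B cell genes (379 CPM), T and NK cell genes (284 CPM), Eln (307 CPM) and Pilra (69.8 CPM), and mouse 377 in adipocyte genes (894 CPM).

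The slope on the acinar share differed between the genotypes for 33 genes (edgeR quasi-likelihood test, adjusted p under 0.05). Given as KPC ASC KO minus KPC in log2 CPM per log2 unit of share, the difference was 2.91 for Gal and 1.88 for Casp9. It was -7.00 for Reg2, -5.49 for Reg3g and -5.27 for Reg3b, -5.50 for Pilra and -5.21 for Retnla. Among matrix genes it was -4.79 for Eln, -3.51 for Col1a1, -3.21 for Col3a1 and -2.36 for Sparc. Among macrophage genes it was -3.18 for Ctss, -2.93 for C1qc, -2.87 for C1qb and -2.56 for Tyrobp, and it was -2.70 for Junb.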

How the results depend on the processing

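Over 26 alternatives, 268 of the recomputed single-gene values lost the threshold, 185 gained it, 7 reversed and 3647 were counted as unchanged. A change of direction was counted as reversed only where the gene was called in the main fit or in the alternative. The 3647 therefore include any changes of direction in genes called in neither, and called genes for which an alternative gave no adjusted p. The reversed values, in log2 CPM per log2 unit of share unless another scale is named, were the common slopes of Sec61a1 (-0.061), Xbp1 (-0.065), Rps15 (-0.078) and Rps27l (-0.012) with totals of all counts, that of Gkn1 with the library total as covariate (-0.044), and the slope difference of Casp9 with the share in percentage points (-0.030 per point) and as a rank (-0.081 per rank). The number of genes following the share in common (210) became 2635 with totals of all counts, 407 with the share in percentage points and 61 with the library total as covariate, and ranged from 94 to 893 with 1 mouse left out. In KPC (204) it became 311 with totals outside the 10 genes, 2516 with all totals, 376 with the B cell level as covariate, 44 with the library total and 104 with KPC mice alone, and ranged from 89 to 1047. In KPC ASC KO (118) it became 845 and 1730 under these scalings, 232 with DESeq2, 72 with limma-voom, 230 without a filter on low counts, 1 with ranks, 453 with the B cell level, 438 without KPC mice 40, 89, 145 and 154, and 304 alone, and ranged from 35 to 425. The slope difference (33) became 313 and 589 under these scalings, 96 with DESeq2, 9 with limma-voom, 129 without a filter, 3 with ranks, 272 with the B cell level, 61 with the library total and 219 without those 4 KPC mice, and ranged from 2 to 211. The upper ends are without KPC mouse 43, the lower ends without KPC mouse 48 (common and KPC), KPC ASC KO mouse 384 (KPC ASC KO) and KPC ASC KO mouse 318 (difference). Except where fewer samples or another filter was the alternative itself, the cause was not tested. No paired analysis was possible because mouse numbers are not shared between genotypes. Genes under about 10 counts in most libraries were not tested, so Msln, Cd3e and Pdgfra are given only as counts or not at all.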

Other observations

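Ctrc, which encodes chymotrypsin C, separated the mice in a way the acinar share did not. It had 181 to 1726 CPM in KPC and 1002 to 3222 CPM in KPC ASC KO. Among WT mice it had 2533 CPM in mouse 69 and 18644 to 34502 CPM in the other 5, although mouse 69 had an acinar share of 26.2%, inside the range of the other WT mice. All mice are labelled with the same mixed 129Sv x C57BL/6 background, and whether the WT mice differ from the rest at this locus was not tested. The annotated span of Ctrc holds all 11199 bases of Cela2a on the same strand, so its counts are uncertain.

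The share of Cela2a in the library, of the same locus, was 0.620% in WT mouse 69 and 0.692 to 0.904% in the other 5.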
